A study of Rattus norvegicus with 8 samples.

Results

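Of the 9 genes described here, 5 belong to the cell cycle machinery (Ccnd1, Pcna, Mki67, Cdk1 and Cdkn1a) and 4 are immediate early genes (Fos, Jun, Egr1 and Myc). They were taken from the raw counts by their Ensembl identifiers, a rule that uses no measured value, although results of these data were known when the list was drawn up. All 9 of the 9 listed identifiers were among the 9848 genes of the table, and none was absent. The table holds identifiers without symbols, and the RefSeq gene table used here carries no Ensembl identifier, so each symbol is the one that came with its identifier in the list. All 9 exceeded a raw count of 10 somewhere among the 8 libraries, as did 7875 genes in all, which are the genes tested.

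RNA was sequenced from cultures of the rat enteric glial cell line EGC/PK060399egfr, in 4 groups of 2 libraries each. THC + LPS cells received 0.1 µg/mL of THC, the main psychoactive cannabinoid of the cannabis plant, for 1 h and were then exposed to LPS. THC-COOH + LPS cells received 10 nM of THC-COOH, a carboxylic acid that the liver makes from THC, for 1 h before LPS. LPS cells were exposed to 1 µg/mL of LPS, a bacterial cell wall component that is sensed by the receptor TLR4, for 24 h by the sample labels, and Control cells were untreated. One passage of the study's text instead gives 4 h in LPS for the sequenced cells. The cannabinoids were dissolved in ethanol, and the sources do not state whether Control and LPS cells received ethanol. All groups are 1 cell line, and no source states that both libraries of each group are separate cultures, so p-values cover only the spread between libraries, which may be technical. Glial marker genes were not checked, since the identifiers could not be matched to their symbols. The purpose of the comparisons was to learn what LPS does to these glia and whether either cannabinoid given beforehand alters it.

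Cells enter the cycle when growth signals raise D-type cyclins, which activate kinases that release the genes needed for DNA synthesis, and mitosis is later driven by CDK1. The inhibitor p21, the product of Cdkn1a, holds these kinases back and is a classical target of p53. Immediate early genes encode transcription factors that are made within minutes of a stimulus, without new protein synthesis, and whose RNA decays quickly. In glia and other cells LPS and serum are among such stimuli, and a sample taken many hours later measures the sustained level of these RNAs rather than the first peak.

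The promoters of 3 members are shown, since Mki67 and Cdk1 are the pair whose levels ran most closely together in the libraries and Egr1 is an immediate early gene with the response element typical of that class. The window runs from 250 bases before to 50 after the annotated start, and 5 of the 9 genes (Pcna, Mki67, Cdk1, Cdkn1a and Egr1) matched an entry. Sequences are from RefSeq on the build GRCr8, while the counts were made on Rnor_6.0. They are chr1:199952544-199952843 on the minus strand for Mki67, chr20:19265043-19265342 on the plus strand for Cdk1 and chr18:26736828-26737127 on the plus strand for Egr1. Capitals mark the letters CCAAT (bound by the factor NF-Y in many cell cycle promoters) and TTTGAA (found in cell cycle homology regions), each on either strand, and the CArG box, the core of the serum response element.
Mki67: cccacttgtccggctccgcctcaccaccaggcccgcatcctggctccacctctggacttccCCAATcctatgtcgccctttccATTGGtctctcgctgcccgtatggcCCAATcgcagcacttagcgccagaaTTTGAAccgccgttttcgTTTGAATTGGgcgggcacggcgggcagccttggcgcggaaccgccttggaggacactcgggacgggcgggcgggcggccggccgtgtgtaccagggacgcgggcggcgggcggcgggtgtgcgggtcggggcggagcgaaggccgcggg
Cdk1: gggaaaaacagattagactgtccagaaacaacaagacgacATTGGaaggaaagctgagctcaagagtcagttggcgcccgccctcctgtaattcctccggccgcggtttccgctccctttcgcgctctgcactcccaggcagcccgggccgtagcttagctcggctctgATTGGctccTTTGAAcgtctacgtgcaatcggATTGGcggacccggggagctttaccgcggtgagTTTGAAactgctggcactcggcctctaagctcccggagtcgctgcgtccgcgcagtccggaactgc
Egr1: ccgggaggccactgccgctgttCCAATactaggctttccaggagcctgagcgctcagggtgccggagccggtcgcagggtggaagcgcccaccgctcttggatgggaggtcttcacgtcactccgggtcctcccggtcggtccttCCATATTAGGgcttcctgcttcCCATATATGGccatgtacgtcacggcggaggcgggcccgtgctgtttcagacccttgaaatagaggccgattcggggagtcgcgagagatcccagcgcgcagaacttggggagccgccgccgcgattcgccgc
Mki67 held 4 copies of CCAAT and 2 of TTTGAA, 1 pair of which overlaps, and Cdk1 held 3 and 2. Of 33469 promoters of this length in the table, 37.5% held CCAAT, 18.3% held TTTGAA and 7.41% held both. Egr1 held 2 CArG boxes, against 1.64% of promoters with at least 1 and 0.0209% with 2 or more. Cdkn1a held none of the 3 motifs, and Pcna and Egr1 each held 1 CCAAT. These are matches of letters and say nothing of binding.

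The assay was bulk MARS-seq, which counts the 3' ends of polyadenylated RNA, and the libraries held between 545779 (LPS library 2) and 1559935 (THC + LPS library 1) counts. Levels are CPM, a gene's counts scaled to the total of its library with TMM factors, and they are compared for the same gene only. In bulk RNA, fewer cells that express a gene and less RNA of it per cell cannot be told apart. Differences were tested with edgeR's quasi-likelihood test over all 7875 genes, with Benjamini-Hochberg adjusted p-values, and a gene was called at an adjusted p under 0.05 and a fold change above 1.6. The raw counts of the members ran from 30 (Mki67 in LPS library 2) to 1975 (Ccnd1 in THC + LPS library 1). The gap between the 2 libraries of a group, on the log2 scale, was beyond the 95% range of counting error in 2 of 36 cases over the members (5.56%), namely Cdk1 in THC + LPS and Egr1 in THC-COOH + LPS, and in 12.2% of cases over the 3130 genes whose counts averaged 50 or more. Mki67, Fos, Egr1 and Myc had mean levels under 100 CPM, and for them counting alone gave a coefficient of variation of 14.0%, 12.7%, 12.6% and 12.3%.

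None of the 9 genes was called in any of the 6 comparisons between groups, and the largest of their log2 fold changes was 0.60. Among all genes tested, 0.0381% were called for LPS vs Control, 0.0254% for THC + LPS vs LPS, 0% for THC-COOH + LPS vs LPS, 0.0508% for THC + LPS vs Control, 0.0762% for THC-COOH + LPS vs Control and 0.229% for THC + LPS vs THC-COOH + LPS. In the test of any difference among the 4 groups, which uses no minimum fold, 0 of 9 members passed, against 0.47% of all genes, and the smallest adjusted p of a member was 0.339 (Cdkn1a, edgeR). An unadjusted p under 0.05 was reached there by 3 of 9 members (Cdkn1a, Mki67 and Cdk1) and by 8.04% of all genes. DESeq2 and limma voom also called 0 members in every comparison. Without adjustment, edgeR gave an unadjusted p under 0.05 in 11 of 54 member comparisons, against 7.1% of the comparisons of all genes, and these 11 lay in Cdkn1a (3), Mki67 (3), Pcna (2), Cdk1 (2) and Fos (1). The comparisons share libraries, so they are not separate pieces of evidence.

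**Figure D1:**
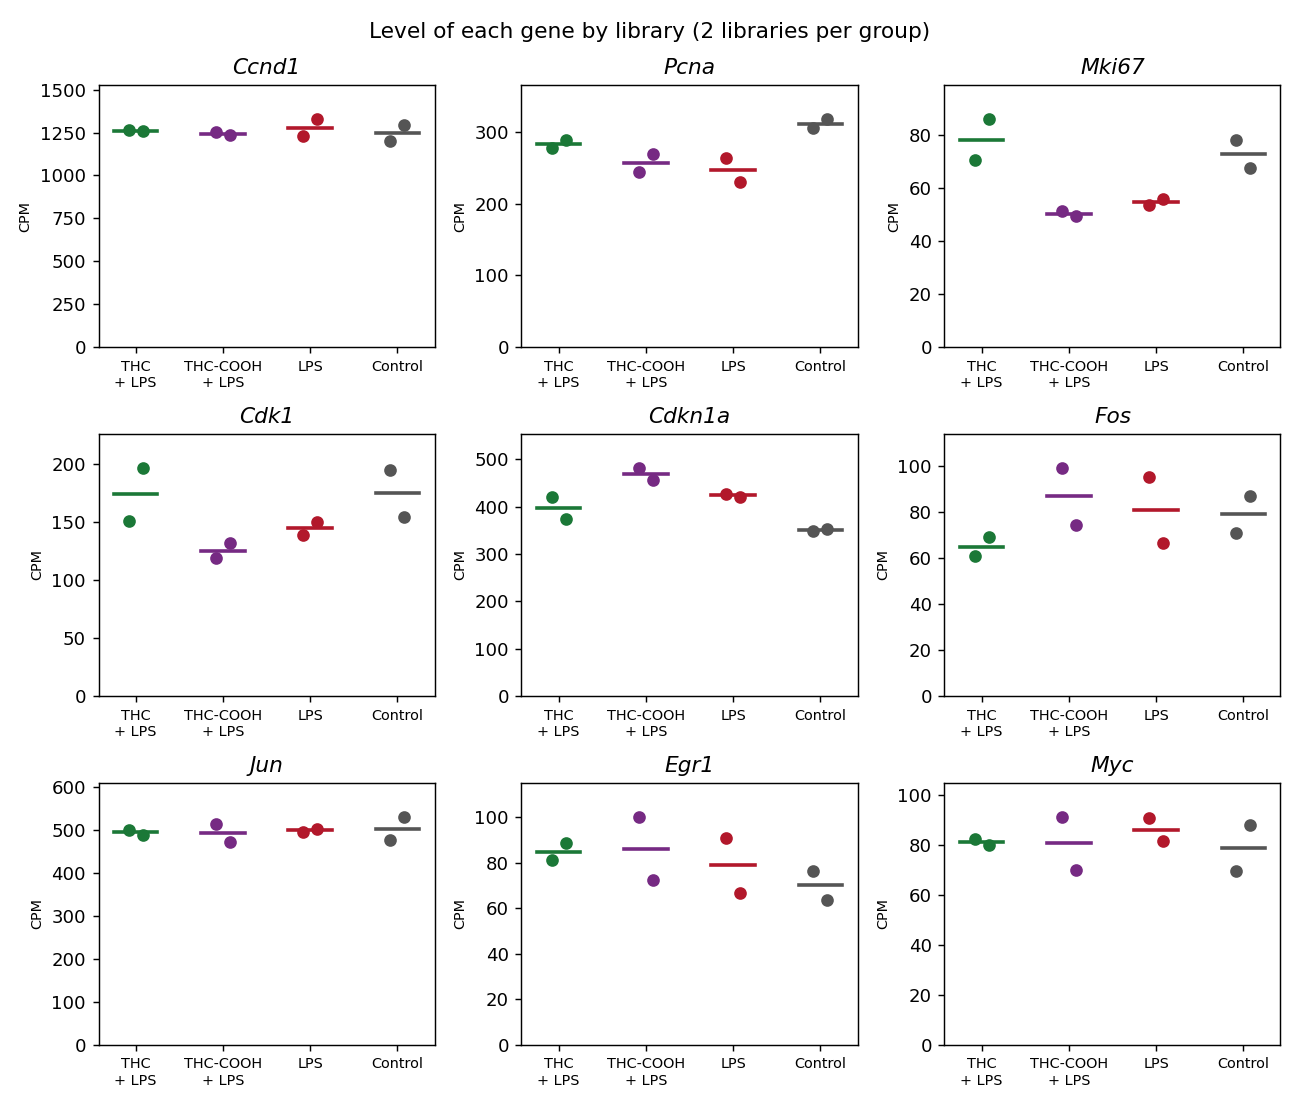
Level in CPM (y axis from 0) of each of the 9 genes in the 8 libraries; each point is 1 library, each horizontal line the mean of the 2 libraries of a group, and the groups run from THC + LPS to Control. Ccnd1 and Jun lie level across the groups, Cdkn1a has both Control libraries below the other 6, and Pcna has both Control libraries above the other 6.

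Ccnd1 (ENSRNOG00000020918) encodes cyclin D1, the partner of CDK4 and CDK6 in G1. Its level was 1265 and 1258 CPM in THC + LPS, 1252 and 1234 in THC-COOH + LPS, 1228.5 and 1328 in LPS, and 1203.5 and 1296 in Control. The highest library was 1.10 times the lowest, and the coefficient of variation over the 8 libraries was 3.14%, beside 3.11% from counting alone. In all 6 comparisons the 95% interval of the fold change lay between 0.871 and 1.14, so a 1.6-fold difference in either direction was outside it.

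Cdkn1a (ENSRNOG00000000521) encodes the CDK inhibitor p21. It had 419 and 374 CPM in THC + LPS, 482 and 456 in THC-COOH + LPS, 427 and 421 in LPS, and 349 and 352 in Control. Every LPS-exposed library lay above both Control libraries, and the THC-COOH + LPS libraries were the highest. For THC-COOH + LPS against Control the log2 fold change was 0.42 (standard error 0.11, 95% interval 0.19 to 0.65), with an adjusted p of 0.184 from edgeR, and for LPS against Control it was 0.28 (0.04 to 0.51), with an adjusted p of 0.614 from edgeR. For THC + LPS against Control it was 0.19 (−0.04 to 0.41), and 0.10 without THC + LPS library 1. An order with all 6 LPS-exposed libraries above both Control libraries was found in 4.69% of all genes tested. The exact two-sided permutation test of log2 CPM, 6 libraries against 2, gave p = 0.0357, which is the smallest that its 28 arrangements allow and which 4.51% of genes reached, and the adjusted p over all genes was 0.792. Relative to LPS alone, the log2 fold change was −0.09 for THC + LPS and 0.14 for THC-COOH + LPS, and both intervals held 0.

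Pcna (ENSRNOG00000021264) encodes the sliding clamp of DNA polymerase in S phase. Its level was 278 and 289 CPM in THC + LPS, 245 and 270 in THC-COOH + LPS, 264 and 230 in LPS, and 306 and 318 in Control. Here the 6 LPS-exposed libraries all lay below both Control libraries, an order seen in 4.04% of all genes. The log2 fold change was −0.33 for LPS against Control (95% interval −0.59 to −0.06, adjusted p = 0.61 from edgeR), −0.28 for THC-COOH + LPS against Control (−0.54 to −0.02) and −0.14 for THC + LPS against Control (−0.40 to 0.11). The exact permutation test of 6 libraries against 2 gave p = 0.0714, and the adjusted p over all genes was 0.833.

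Mki67 (ENSRNOG00000028137) encodes Ki-67, a nuclear protein of dividing cells that is widely used as a proliferation marker. It had 70.4 and 85.8 CPM in THC + LPS, 51.1 and 49.3 in THC-COOH + LPS, 53.4 and 55.7 in LPS, and 77.8 and 67.5 in Control, from raw counts between 30 and 110. The THC + LPS libraries lay above those of LPS and of THC-COOH + LPS and overlapped those of Control. The log2 fold change of THC + LPS against THC-COOH + LPS, the largest among the 9 genes, was 0.60 (standard error 0.20, 95% interval 0.19 to 1.02, adjusted p = 0.307 from edgeR). Against LPS alone, THC + LPS had a log2 fold change of 0.49 (0.06 to 0.93, adjusted p = 0.779 from edgeR). Relative to Control it was −0.53 in THC-COOH + LPS (−0.97 to −0.09), −0.42 in LPS (−0.88 to 0.04) and 0.07 in THC + LPS (−0.33 to 0.48), and none of these passed. The LPS libraries enter both the THC + LPS and the Control comparison, so those values are linked.

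Cdk1 (ENSRNOG00000000632) encodes the kinase that drives entry into mitosis. Its level was 151 and 197 CPM in THC + LPS, 119 and 132 in THC-COOH + LPS, 139 and 150 in LPS, and 195 and 155 in Control. The THC-COOH + LPS libraries were the lowest pair, and the THC + LPS and Control libraries spread over the same range. The gap between the 2 THC + LPS libraries was 2.47 times its counting error. For THC-COOH + LPS against Control the log2 fold change was −0.48 (95% interval −0.81 to −0.14, adjusted p = 0.413 from edgeR), and it was −0.30 without Control library 1. For THC + LPS against THC-COOH + LPS it was 0.44 (0.12 to 0.77, adjusted p = 0.356 from edgeR), with 0.27 when THC + LPS library 2 was left out and 0.66 when THC + LPS library 1 was left out. The 2 cannabinoids were given at different doses, so these differences between them compare the groups as treated.

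Among the immediate early genes, Jun (ENSRNOG00000026293), which encodes the c-Jun subunit of the factor AP-1, varied least. It had 501 and 489 CPM in THC + LPS, 515 and 473 in THC-COOH + LPS, 497 and 503 in LPS, and 476 and 531 in Control. Each of the 4 groups overlapped every other, and the coefficient of variation over the 8 libraries, 3.90%, was below the 4.95% that counting alone gives. The 95% intervals of its fold changes lay between 0.845 and 1.16 in the 6 comparisons.

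Fos (ENSRNOG00000008015), whose product c-Fos pairs with c-Jun in AP-1, had 60.8 and 69.2 CPM in THC + LPS, 99.3 and 74.6 in THC-COOH + LPS, 95.5 and 66.8 in LPS, and 71.1 and 87.0 in Control. The LPS and THC-COOH + LPS libraries were each split into a high and a low one, with the THC + LPS libraries at the low end. The log2 fold change of THC + LPS was −0.45 against THC-COOH + LPS (95% interval −0.86 to −0.03, adjusted p = 0.52 from edgeR), −0.38 against LPS (−0.82 to 0.06) and −0.31 against Control (−0.74 to 0.13). For LPS against Control it was 0.08 (−0.37 to 0.53). Single libraries carried much of these values. The difference from THC-COOH + LPS was −0.22 without THC-COOH + LPS library 1, that from LPS was −0.06 without LPS library 1, and that from Control was −0.16 without Control library 2. The LPS against Control value was −0.25 without LPS library 1.

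Egr1 (ENSRNOG00000019422), the zinc finger factor whose promoter is shown above, had 81.3 and 88.6 CPM in THC + LPS, 100.3 and 72.4 in THC-COOH + LPS, 90.9 and 66.8 in LPS, and 76.5 and 63.6 in Control. The libraries with high Fos in THC-COOH + LPS and in LPS were also those with high Egr1, whereas in Control the library with the higher Fos had the lower Egr1. The log2 fold change of THC-COOH + LPS against Control was 0.31 (95% interval −0.12 to 0.74, adjusted p = 0.722 from edgeR), and that of LPS against Control was 0.21 (−0.25 to 0.66). In both comparisons the libraries overlapped. The values were 0.05 without THC-COOH + LPS library 1 and −0.07 without LPS library 1, the libraries with the highest Egr1. For THC + LPS against Control the log2 fold change was 0.27 (−0.16 to 0.69, adjusted p = 0.943 from edgeR). Both THC + LPS libraries lay above both Control libraries, an order seen in 17% of all genes. That fold change was 0.13 without Control library 2 and 0.40 without Control library 1.

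Myc (ENSRNOG00000004500), which encodes a factor that promotes growth and division, had 82.6 and 80.3 CPM in THC + LPS, 91.4 and 70.2 in THC-COOH + LPS, 90.9 and 81.6 in LPS, and 69.8 and 88.3 in Control. Its groups overlapped in all 6 comparisons, its log2 fold changes ran from −0.10 to 0.14, and the smallest unadjusted p from edgeR was 0.503. The scatter over the 8 libraries, 10.3% of the mean, was below the 12.3% that counting alone gives.

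**Figure D2:**
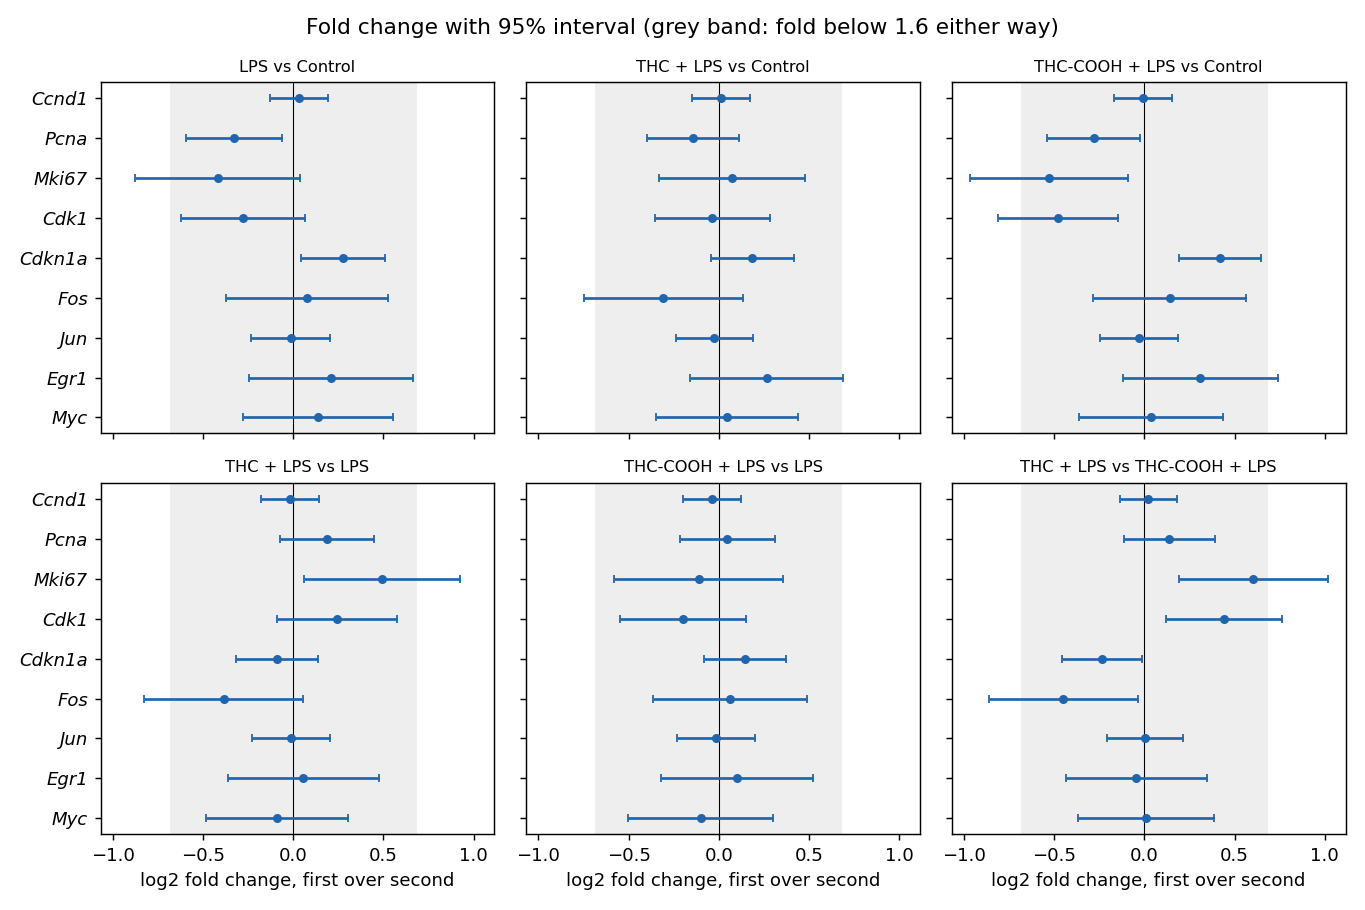
Log2 fold change (x axis, first group over second) of each gene in the 6 comparisons between groups, with 95% intervals from edgeR as bars; the grey band spans fold changes below 1.6 in either direction. All intervals of Ccnd1, Pcna, Cdkn1a, Jun and Myc lie inside the band, and 11 of 54 intervals reach beyond it, in Mki67, Cdk1, Fos and Egr1.

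The members' differences were next read against those of all genes, and their median absolute log2 fold change lay below that of all genes in 4 of the 6 comparisons. The 2 sets differ in depth, since the members' mean CPM lay between percentiles 64.2 and 98.5 of the genes tested. The medians therefore do not show that the members varied less than genes of similar level. For LPS against Control, 2 of 9 had an unadjusted p under 0.05 (Pcna and Cdkn1a), where 7.16% of all genes did, and the median absolute log2 fold change was 0.21 over the members and 0.20 over all genes. For THC + LPS against LPS it was 1 of 9 (Mki67) beside 6.16% of all genes, with medians of 0.09 and 0.19. For THC-COOH + LPS against LPS it was 0 of 9 beside 6.7%, with medians of 0.10 and 0.20. THC + LPS against Control likewise gave 0 of 9 beside 5.33%, with medians of 0.07 and 0.18. For THC-COOH + LPS against Control it was 4 of 9 (Pcna, Mki67, Cdk1 and Cdkn1a) beside 8.43%, with medians of 0.28 and 0.21. For THC + LPS against THC-COOH + LPS it was 4 of 9 (Mki67, Cdk1, Cdkn1a and Fos) beside 8.81%, with medians of 0.14 and 0.20. In both of these Cdkn1a was opposite in sign to Mki67 and Cdk1. DESeq2 gave fewer members and fewer genes in all at an unadjusted p under 0.05. It gave 2 of 9 members beside 2.1% of all genes for THC-COOH + LPS against Control, and 1 of 9 beside 2.4% for THC + LPS against THC-COOH + LPS. It gave 0 of 9 for LPS against Control, THC + LPS against LPS, THC-COOH + LPS against LPS and THC + LPS against Control, beside 1.88%, 1.49%, 1.45% and 0.94% of all genes. The edgeR counts also rested on single libraries. The 4 for THC-COOH + LPS against Control became 1 without THC-COOH + LPS library 1 and 2 without Control library 1, and the 4 for THC + LPS against THC-COOH + LPS became 1 without THC-COOH + LPS library 1 and 2 without THC + LPS library 2. The 2 for LPS against Control became 0 without LPS library 2 and 1 without LPS library 1 or either Control library. The 1 for THC + LPS against LPS became 0 without LPS library 1 or THC + LPS library 2, and 2 without THC + LPS library 1. Each such fit has a group of 1 library. The members were few and chosen with results known, so no test was made of their number. The 95% interval left out fold changes of 1.6 or more in either direction in 43 of 54 cases. By comparison, members are given beside the share of genes whose counts averaged 50 or more. Against LPS, these were 7 of 9 and 86% for THC + LPS, and 9 of 9 and 84.4% for THC-COOH + LPS. Against Control, they were 8 of 9 and 80.5% for LPS, and 7 of 9 and 88.6% for THC + LPS. THC-COOH + LPS against Control had 6 of 9 and 82.1%. THC + LPS against THC-COOH + LPS had 6 of 9 and 86.2%.

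The order of the libraries was also counted, since with 2 libraries a group the exact permutation test cannot pass. For LPS against Control, both LPS libraries lay above both Control libraries for 1 member (Cdkn1a), as for 17.9% of all genes, and below them for 3 (Pcna, Mki67 and Cdk1), as for 18%. In THC + LPS against LPS, 3 members lay above (Pcna, Mki67 and Cdk1), beside 17.9% of all genes, and 1 below (Cdkn1a), beside 18.7%. For THC-COOH + LPS against LPS, 1 lay above (Cdkn1a), beside 18.3%, and 2 below (Mki67 and Cdk1), beside 18%. The immediate early genes overlapped in all 3 of these comparisons. For THC + LPS against Control, 2 lay above (Cdkn1a and Egr1), beside 17%, and 2 below (Pcna and Fos), beside 17.7%. For THC-COOH + LPS against Control, 1 lay above (Cdkn1a), beside 19.3%, and 3 below (Pcna, Mki67 and Cdk1), beside 18.9%. With THC + LPS set against THC-COOH + LPS, 4 lay above (Ccnd1, Pcna, Mki67 and Cdk1), beside 19.9%, and 2 below (Cdkn1a and Fos), beside 19.6%. The libraries of every group enter several of these counts, so the recurrence of the same names is not repeated evidence.

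Pooled comparisons were also fitted. All 3 LPS-exposed groups together had a log2 fold change against Control of 0.29 for Cdkn1a (95% interval 0.10 to 0.49, adjusted p = 0.506 from edgeR) and −0.25 for Pcna (−0.46 to −0.04, adjusted p = 0.645 from edgeR), and 0 of 9 members were called, against 0.0635% of all genes. An unadjusted p under 0.05 was reached by 2 of 9 members and by 6.65% of all genes. With both cannabinoid groups set against LPS, 0 of 9 members and 0% of all genes were called, and 0 of 9 members and 5.6% of all genes had an unadjusted p under 0.05. No member had all cannabinoid libraries above both LPS libraries (7.52% of all genes) or below both (7.28%).

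Across the 8 libraries, Mki67 and Cdk1 ran together. Of 36 pairs of members compared, they had the highest Pearson correlation of log2 CPM, 0.918 (exact permutation p = 0.000471, adjusted 0.017 over the 36 pairs), with a Spearman's rho of 0.952 (exact permutation p = 0.00114, adjusted 0.0402). The correlation was 0.91 between deviations from the group means, 0.778 without the 2 libraries farthest from the median of Mki67, and between 0.873 and 0.947 when 1 library was left out. With 2 libraries a group, the deviations of a group mirror each other. Every correlation between deviations given here therefore rests on fewer separate values than the 8 libraries. Mki67 had no value between 55.7 and 67.5 CPM, with LPS and THC-COOH + LPS libraries below this gap and THC + LPS and Control libraries above it. Among the 3130 genes whose counts averaged 50 or more, Cdk1 ranked 13 by its correlation with Mki67. Pcna had a Pearson correlation of 0.678 with Mki67 (exact permutation p = 0.0706, adjusted 0.423). With Cdk1 its correlation was 0.591 (exact permutation p = 0.123, adjusted 0.504). Between deviations from the group means, Pcna did not follow these genes, with −0.15 for Mki67 and 0.00365 for Cdk1. Cdkn1a ran opposite to Cdk1, with a Pearson correlation of −0.859 (exact permutation p = 0.00724, adjusted 0.13) and a Spearman's rho of −0.929 (exact permutation p = 0.00223, adjusted 0.0402), and with −0.84 without the 2 libraries farthest from the median of Cdk1 and −0.815 between deviations from the group means. Jun and Myc had a Pearson correlation of 0.831 (exact permutation p = 0.0112, adjusted 0.135) and a Spearman's rho of 0.762 (exact permutation p = 0.0368, adjusted 0.265), with 0.839 without the 2 libraries farthest from the median of Jun and 0.909 between deviations from the group means. Myc ranked 18 of the 3130 genes by its correlation with Jun. Cdkn1a also had Pearson correlations of −0.817 with Mki67 (exact permutation p = 0.0192) and −0.795 with Pcna (exact permutation p = 0.0198), both adjusted to 0.143. Between deviations from the group means these were −0.711 and −0.333. Libraries of 1 group share their treatment, the library totals enter all genes of a library, and the 8 libraries are few, so these values describe these libraries. Fos and Egr1, whose RNAs respond to the same stimuli, had a correlation of 0.383 (exact permutation p = 0.341), which was −0.604 without the 2 libraries farthest from the median of Fos and 0.699 between deviations from the group means.

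**Figure D3:**
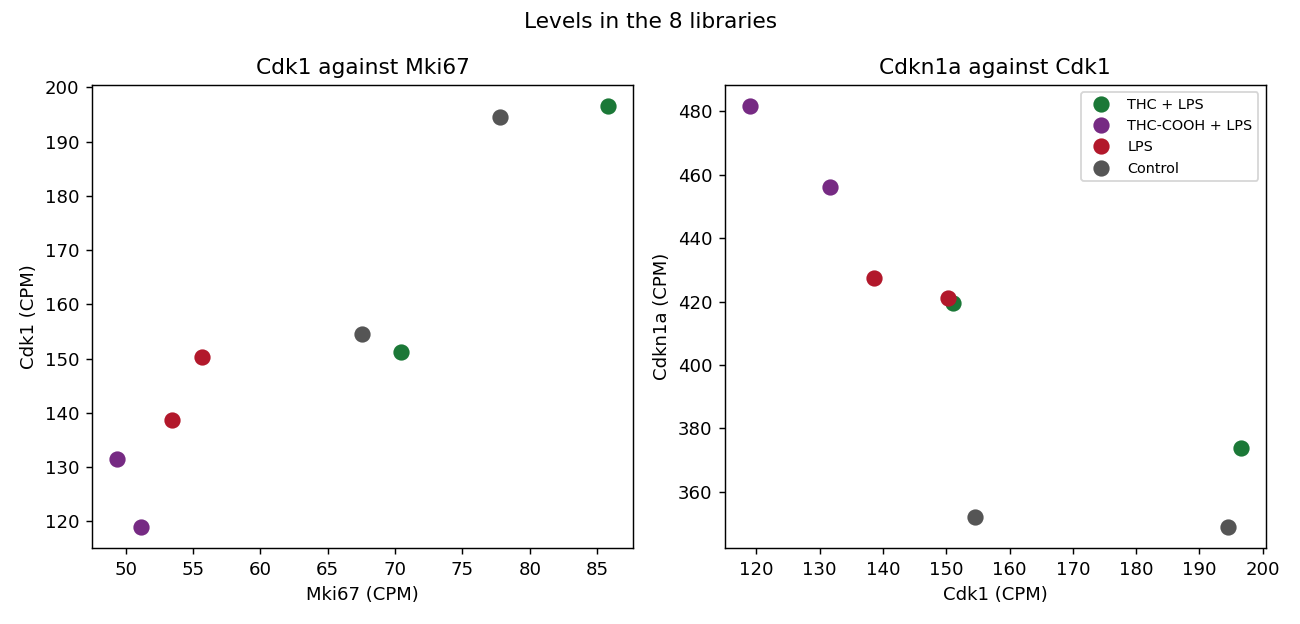
Level of Cdk1 against Mki67 (left) and of Cdkn1a against Cdk1 (right), both axes in CPM and not starting at 0; each point is 1 of the 8 libraries, coloured by group. Mki67 (49.3 to 55.7 CPM) and Cdk1 (119 to 150 CPM) are both lowest in the THC-COOH + LPS and LPS libraries. For Cdk1 there is no gap, since THC + LPS library 1 has 151 CPM and Control library 2 has 155. Cdkn1a is lowest in the Control libraries.

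The gene whose level over the 8 libraries was most like that of Cdkn1a, the member with the largest F among the 4 groups, was ENSRNOG00000014214, with a Pearson correlation of 0.98 and a level between 1528 and 1964 CPM, followed by ENSRNOG00000011020 at 0.955. Of the 3130 genes compared, 6 had a correlation above 0.9 with Cdkn1a, 22 with Cdk1, 17 with Mki67 and 11 with Pcna. There were 5 such genes for Egr1, 4 for Jun, 2 for Myc, and 1 for each of Ccnd1 and Fos. Such likeness over 8 libraries was found by searching all of these genes, and it is given as a description.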

How the data were processed

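The authors made bulk MARS-seq libraries from polyadenylated RNA and, per the labels, demultiplexed them with bcl2fastq 2.20.0.422, trimmed with cutadapt, aligned to Rnor_6.0 with STAR 2.7.3a and counted genes with HTSeq. The sources name neither the annotation release nor the use of molecular identifiers. The deposited raw values are counts, not normalized. A deposited table of normalized signal equals those counts over 1 size factor per library (0.638 to 1.84) and had no other use.

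Raw counts of genes with a count above 10 in at least 1 library, a minimum taken with the thresholds from the study's methods, were fitted with edgeR 4.0.16 in R 4.3.3 over all 8 libraries (TMM, 4 residual degrees of freedom, common biological coefficient of variation 0.0904). Standard errors came from the log2 fold change and F, and 95% intervals from the standard error. The p-values and intervals also used 19.7 prior degrees of freedom, so much of the spread estimate was borrowed from other genes. Log2 CPM used a prior count of 2. With 2 libraries in each of 2 groups, 0.333 is the smallest exact permutation p. The fit was tested on simulated data. Alternatives were DESeq2 1.42.0, DESeq2 size factors, limma voom (limma 3.58.1), other filters and thresholds, a replicate block, the 4 libraries of a comparison, and each library left out. Members and lists were chosen with earlier results of these data known. The named genes were the 9 members and the 2 genes most like the member with the largest F. Lists of further cell cycle, AP-1 and marker genes were not used, since symbols could not be matched to identifiers (0 of 47357 RefSeq genes carried one). Figures used matplotlib 3.10.9 in Python 3.11.15.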

Additional observations from a re-analysis of the deposited data

How the results depend on the processing

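The 9 comparisons (6 between groups, 2 pooled and the test of any difference) gave 0 called members under DESeq2 size factors, filterByExpr, every gene with a count, DESeq2, limma voom, the 4 libraries of a comparison alone (for those between groups), an adjusted p without a minimum fold, and each library left out in turn (0 to 0), where the lone library of a group is assumed to vary like the other groups. An unadjusted p gave 3 members (Mki67, Cdk1 and Cdkn1a) for any difference among the 4 groups, where no correction and no fold apply, and 0 in the comparisons with the minimum fold. That 0 was fixed whatever the p-values, since the largest member log2 fold change of the main fit, 0.60, was below the minimum of 0.678. The smallest adjusted p of a member over all fits of a comparison was 0.104, for Cdkn1a in THC-COOH + LPS against Control with limma voom, where its range was 0.104 to 0.967 and its log2 fold change 0.38 to 0.46. Of 72 member fold changes, 35 kept their sign in every alternative, and those that changed it were at most 0.21 in size on the log2 scale. Across the other scaling, filters, tools and the replicate block, the median log2 fold change of all genes moved by at most 0.0161. That shift came with the filter that kept every gene with a count, and DESeq2 size factors moved the median by at most 0.00308. The replicate block also gave 0 called members in each comparison. The differences between library 1 and library 2 had correlations between groups from −0.0858 to 0.103 over 3131 genes. Over the genes whose counts averaged 50 or more, such differences had a median size of 0.834 times their counting error. A weak shared effect could be hidden by this, so it remains unsettled whether the numbers pair the libraries. Depth limits Mki67, Fos, Egr1 and Myc, whose intervals were the widest.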
